A study of Rattus norvegicus with 40 samples.

Results

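The transcription factors described here belong to families that lay out the regions of the developing brain: Dlx, Emx, En, Eomes, Fox, Irx, Lhx, Meis, Neurod, Nkx, Otx, Pax, Pbx, Sox, Tbr1, Zic and the sine oculis homologues such as Six3. Members were chosen by gene name alone, and 114 of the 23485 genes in the hippocampus table carried such a name. All 4 tables list 107 of them. The Fox family gave 33 members, the Sox family 16, and the Pax and Nkx families 9 each. A name does not make a gene a regional factor: Foxo, Foxk, Foxm1 and Foxp3, best known from metabolism, the cell cycle and immune cells, are among the members.

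Patterning factors bind DNA through domains such as the homeodomain, the forkhead, the paired domain, the HMG box, the zinc finger and the basic helix-loop-helix. In the embryo they divide the neural tube into forebrain, midbrain and hindbrain, and many stay active in adult neurons and glia. The Emx genes mark the telencephalon, the En genes the midbrain-hindbrain border and the cerebellum, and the Zic genes the cerebellar granule cells and the meninges.

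Total RNA was sequenced from hippocampus, amygdala, anterior cortex and cerebellum of rats at 12 months after blast or sham exposure. Every region has 5 libraries from blast-exposed and 5 from sham rats, which makes 40. No strain, age or sex is in the labels. Nor do they tie libraries to separate animals, so p-values measure only the spread between these samples. Total counts per library ran from 11268097 to 37128383. In bulk tissue, fewer cells of a type and less RNA per cell cannot be told apart.

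Levels are given in CPM, counts scaled by library size on 1 scale over the 40 libraries. Lists of 5 values follow the title numbers, 11, 13, 14, 15 and 33 for sham and 4, 8, 22, 88 and a last, higher number for blast. In the amygdala, an unnumbered sham library takes the second place. Called means a Benjamini-Hochberg adjusted p under 0.05. Cerebellar marker genes summed to 8077 to 8557 CPM in the sham cerebellum and to at most 2330 CPM in the other sham libraries. The cortical list was highest in the anterior cortex, at 845 to 1505 CPM. The hippocampal list overlapped between hippocampus (1345 to 1563 CPM) and amygdala (1307 to 1444 CPM). The amygdala list did not mark the amygdala, with 459 to 637 CPM there and 572 to 750 CPM in the hippocampus.

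Some libraries stood apart. Hippocampus sham library 11, blast library 8 and the last blast library held 5591 to 9323 CPM of choroid plexus genes, against 25.6 to 274 CPM in the other 7. Anterior cortex sham libraries 11, 13 and 15 and blast library 8 had counts for 16577 to 17845 genes, against 18744 to 20748 in the other 6. Values without them are given beside the results that they change.

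Promoters of 72 of the 114 members were found in the RefSeq table of build GRCr8, as 76 sequences. The 250 bases before the start had a median GC content of 63.4% in these 76 and 51.2% in all 33469 promoters. A set of 5 is shown for members called above each other region in the sham libraries: Neurod6 (hippocampus; chr4:86180156-86180405, minus strand), Tbr1 (anterior cortex; chr3:66759553-66759802, plus strand), Foxp1 (anterior cortex, a lead not called without the libraries that stood apart; chr4:133353281-133353530, minus strand), and the engrailed pair of the cerebellum, En1 (chr13:34303434-34303683, plus strand) and En2 (chr4:7960794-7961043, minus strand). Each runs 5′ to 3′ on the strand of the gene and ends at the base before the start. Capitals mark the motifs searched on both strands: the homeodomain core TAATTA, the forkhead core TGTTTAC, the Sox core AACAAT, the E-box CAGATG and the TATA box TATAAA.
Neurod6: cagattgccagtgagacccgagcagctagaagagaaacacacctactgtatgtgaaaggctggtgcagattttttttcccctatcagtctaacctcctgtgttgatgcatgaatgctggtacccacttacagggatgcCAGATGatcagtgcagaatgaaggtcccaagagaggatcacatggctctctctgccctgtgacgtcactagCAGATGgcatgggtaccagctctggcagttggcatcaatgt
Tbr1: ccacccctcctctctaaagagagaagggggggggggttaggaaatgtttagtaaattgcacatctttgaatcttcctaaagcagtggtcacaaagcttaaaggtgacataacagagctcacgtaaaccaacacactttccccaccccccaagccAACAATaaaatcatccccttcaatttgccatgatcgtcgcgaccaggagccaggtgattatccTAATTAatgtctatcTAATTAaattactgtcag
Foxp1: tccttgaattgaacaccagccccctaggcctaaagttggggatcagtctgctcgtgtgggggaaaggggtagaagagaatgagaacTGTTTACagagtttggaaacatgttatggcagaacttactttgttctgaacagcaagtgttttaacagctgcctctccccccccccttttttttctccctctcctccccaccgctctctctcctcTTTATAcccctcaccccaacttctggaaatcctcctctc
En1: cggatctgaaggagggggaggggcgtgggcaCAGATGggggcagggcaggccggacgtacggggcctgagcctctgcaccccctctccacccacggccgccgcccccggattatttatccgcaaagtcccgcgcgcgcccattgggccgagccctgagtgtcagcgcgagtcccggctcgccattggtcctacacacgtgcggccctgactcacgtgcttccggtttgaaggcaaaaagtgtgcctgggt
En2: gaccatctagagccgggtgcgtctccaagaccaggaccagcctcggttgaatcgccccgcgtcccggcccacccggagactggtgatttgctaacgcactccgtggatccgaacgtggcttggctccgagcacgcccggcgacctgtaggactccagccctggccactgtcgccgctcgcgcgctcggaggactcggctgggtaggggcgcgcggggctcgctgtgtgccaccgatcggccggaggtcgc
The Neurod6 promoter held CAGATG at 112 and 41 bases before the start, a form of the E-box that basic helix-loop-helix factors bind. Tbr1 held TAATTA at 33 and 18 bases and AACAAT at 96 bases before the start. Foxp1, itself a forkhead factor, held TGTTTAC at 164 bases before the start and, on the other strand, TATAAA at 39. En1 held CAGATG at 219 bases before the start, and none of these letters was in the En2 window. TAATTA was in 2.63% of the member promoters and 4.86% of all promoters, and TGTTTAC in 1.32% and 3.21%. AACAAT was in 5.26% and 10.3%, CAGATG in 6.58% and 14%, and TATAAA in 3.95% and 12.9%. A match describes the letters and shows no binding.

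In the sham brain, 80 of the 87 members that passed the filter on low counts differed over the 4 regions (edgeR quasi-likelihood F test), and 74.4% of all genes tested were called likewise. Passing the filter needed counts in at least 1 region, so the 87 are not all members. Most calls lay between the cerebellum and the forebrain. Between amygdala and cerebellum 75 members were called (58.5% of genes), 44 higher in the amygdala (30.7%) and 31 lower (27.8%). Between anterior cortex and cerebellum there were 69 (60.1% of genes), with 41 higher in the cortex (30.4%) and 28 lower (29.7%). Between hippocampus and cerebellum there were 61 (53.2% of genes), with 30 higher in the hippocampus (27.9%) and 31 lower (25.4%).

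Within the forebrain, more members were called lower than higher in the hippocampus. The filter passed 68 members in the hippocampus on its own, 77 in the amygdala and 70 in the anterior cortex. Some of those called lower, such as Six3, thus entered through another region, where they are higher. The counts of lower members are therefore no support for a lower hippocampus. Against the anterior cortex 51 members were called (43.5% of genes), 14 higher in the hippocampus (21.9%) and 37 lower (21.6%). Without the libraries that stood apart 46 were, and the genes called went from 6826 to 3995. Against the amygdala 36 were called (20.6% of genes), 8 higher in the hippocampus (9.1%) and 28 lower (11.5%). Amygdala and anterior cortex gave the fewest, 25 (21.8% of genes), with 11 higher in the amygdala (10.3%) and 14 lower (11.4%). Without the libraries that stood apart the count between amygdala and anterior cortex was 18, and the genes called there went from 3415 to 1122.

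By highest sham mean, the anterior cortex led with 30 tested members, then the cerebellum with 29, the amygdala with 16 and the hippocampus with 12. Members called above each of the other 3 regions numbered 24 in the cerebellum (16.9% of all genes tested), 8 in the anterior cortex (4.67%), 6 in the hippocampus (4.15%) and 1 in the amygdala (1.63%). Of the 24, 10 passed the filter on low counts in the cerebellum alone, where they are high, so their count is no support for a cerebellar excess. In the 20 blast libraries, whose values were not used to pick these 39, 36 of them were again above each other region. Foxo4 and Six3 were among the 3 that were not. The 36 include the 10 that passed the filter in the cerebellum alone. The share of all genes that repeat in the blast libraries was not computed, so the 36 set nothing apart about the members. Without the libraries that stood apart 33 of the 39 kept the call, and among the 6 that lost it were Emx2, Foxp1, Foxp2, Six3 and Sox8.

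**Figure D1:**
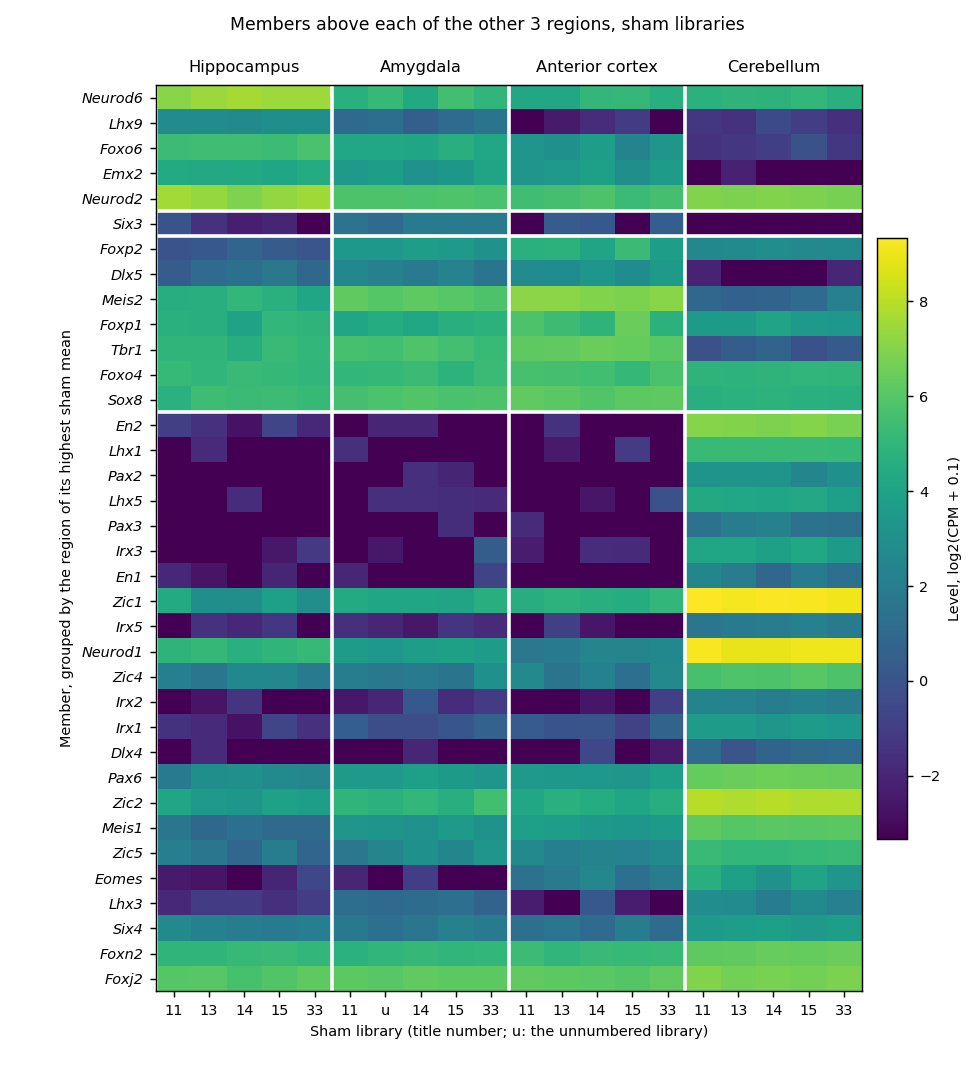
Heat map of 36 of the 39 members called above each of the other 3 regions in sham libraries. Members not reported here by name are left out, so these are not the 36 that repeated in the blast libraries. Rows are members grouped by that region, columns the 20 sham libraries, and colour the level as log2(CPM + 0.1); 23 of the rows belong to the cerebellum.

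The regional contrasts can be read by the members' known roles. Of 15 dorsal forebrain and glutamatergic neuron factors, 7 were called higher in the hippocampus than in the amygdala and 3 lower (median log2 difference 0.49), where 9.1% and 11.5% of all genes were. Of 12 ventral forebrain and GABA neuron factors tested, 10 were called lower in the hippocampus than in the amygdala and 0 higher (median -1.40). Of 16 factors of meninges, choroid plexus, ependyma and vessels tested, 7 were called lower in the hippocampus than in the amygdala and 0 higher (median -0.73). The median over all genes was 0.01 for this pair. On its own the hippocampus passed 10 of the ventral and 13 of the meningeal group through the filter, fewer than the 12 and 16 tested. The rest entered through another region, so these counts and medians are no support for lower levels of the groups in the hippocampus. The 6 glial and stem cell factors were all called lower in the cerebellum than in the amygdala (median 0.92 for amygdala minus cerebellum, with 30.7% of genes called that way) and than in the anterior cortex (median 1.12, with 30.4% of genes). Against the hippocampus 3 of the 6 were called lower in the cerebellum (median 0.47 for hippocampus minus cerebellum, with 27.9% of genes). Of 19 midbrain, hindbrain and cerebellar factors 7 passed the filter in the hippocampus on its own, so no count against the cerebellum is given for them.

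En2, an engrailed homeodomain protein of the cerebellar primordium, read 129, 123, 113, 126 and 110 CPM in the sham cerebellum. In each forebrain sham library it stayed at or below 0.517 CPM, so the groups were far apart. Against the hippocampus, its nearest region, the log2 difference for hippocampus minus cerebellum was -8.77 ± 0.34 (SE, edgeR). En2 passed the filter on low counts in the cerebellum alone, where it is high, so no p is given. The same holds for En1, Lhx1, Lhx5, Pax2, Pax3 and Irx3. Against the anterior cortex, where the 5 libraries together had 3 counts, the fold was 2361 with a counting interval of 808 to 11450. En1, its paralog, read 5.56, 3.93, 1.78, 3.58 and 2.36 CPM in the cerebellum and had no count in the sham anterior cortex, which makes it at least 68.7-fold higher with 3 counts over the group as the floor.

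Lhx1 and Lhx5, LIM homeodomain factors of Purkinje cells, were likewise near absent from the forebrain. Lhx1 read 38.2, 37.8, 38.4, 36.2 and 36.0 CPM in the sham cerebellum and at most 0.374 CPM elsewhere. Lhx5 read 20.3, 19.4, 17.3, 19.8 and 14.2 CPM there and at most 0.775 elsewhere. Both were free of overlap between cerebellum and forebrain.

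The paired-domain members Pax2 and Pax3 and the Iroquois member Irx3 were split in the same way, while Irx6 did not pass the test over the 4 regions (edgeR adjusted p = 0.936). Pax2, a factor of cerebellar interneuron precursors, read 9.40, 9.28, 9.31, 5.46 and 7.94 CPM in the sham cerebellum. It had no count in the sham hippocampus and anterior cortex, so the cerebellar level was at least 199.9-fold and at least 162-fold higher. Pax3 (2.56, 3.93, 4.45, 2.67 and 2.44 CPM) was at least 77.8-fold higher than in the hippocampus. Irx3 read 17.1, 17.3, 14.4, 18.6 and 11.6 CPM in the cerebellum, and amygdala library 33, at 1.21 CPM, was its highest forebrain sham library.

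Granule cell factors were the most abundant members per kilobase. Zic1 reached 286 ± 20.8 CPM per kb (SD, n = 5) in the sham cerebellum, ahead of Neurod1 at 153 ± 12.48 and Zic2 at 150 ± 8.69. Zic1 read 646, 573, 605, 594 and 529 CPM there, and the log2 difference of the anterior cortex, the next region, minus the cerebellum was -4.45 ± 0.24 (edgeR adjusted p = 1.28e-12). Neurod1, the helix-loop-helix factor of granule cell maturation, read 587, 484, 487, 544 and 533 CPM in the cerebellum. Its hippocampal values were 30.1, 34.6, 26.4, 30.8 and 35.3 CPM, and those of the anterior cortex at most 5.86 CPM, and the 4 regions did not overlap for Neurod1.

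Pax6, a granule cell and cortical progenitor factor, read 81.3, 87.4, 92.8, 89.5 and 84.3 CPM in the sham cerebellum and at most 14.04 CPM in any forebrain sham library. Eomes, which marks unipolar brush cells in the cerebellum, read 25.4, 14.5, 9.03, 16.5 and 9.67 CPM there. In the anterior cortex it read 2.34 to 5.61 CPM, and below 0.58 CPM in hippocampus and amygdala.

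Members that lie next to each other were compared. By the coordinates of the tables, 14 pairs of members lay within 500000 bases of each other. Both genes were tested in 7 pairs, and in 5 of these they had their highest mean in the same region. How often other gene pairs share their highest region was not computed, so this count shows nothing particular to neighbours. Zic1 and Zic4 (chromosome 8, 6864 bases apart on opposite strands) and Zic5 and Zic2 (chromosome 15, 9904 bases apart on opposite strands) were highest in the cerebellum. Dlx1 and Dlx2 (chromosome 3, 10567 bases apart) had their highest mean in the anterior cortex. Neither was called above the amygdala (edgeR adjusted p = 0.240 for Dlx1 and 0.0880 for Dlx2). For these coordinates no build is named in the tables or labels.

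In the hippocampus the widest lead was that of Neurod6, a helix-loop-helix factor of pyramidal neurons. Its levels were 138, 171, 201, 180 and 181 CPM in the sham hippocampus and 19.1 to 44.6 CPM in the sham libraries of the other regions. The log2 difference from the amygdala was 2.45 ± 0.19 (edgeR adjusted p = 5.42e-09), and none of the 3 other regions was called against another. Per kilobase Neurod6 (89.5 ± 11.8 CPM per kb) and Neurod2 (90.9 ± 15.7) were the highest members in the hippocampus, and they did not differ beyond their spread.

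Neurod2, a related neuronal factor that 3 tables annotate as a pseudogene, read 188, 162, 119, 158 and 188 CPM in the hippocampus. The cerebellum was next at 105 to 123 CPM, which overlapped through hippocampus library 14 (log2 difference 0.49 ± 0.11, edgeR adjusted p = 5.82e-04). Lhx9, a LIM homeodomain factor, read 6.87, 6.72, 6.41, 7.83 and 7.87 CPM and exceeded the amygdala by 1.76 ± 0.34 on the log2 scale. Foxo6, a neuronal forkhead factor, read 40.3, 43.2, 43.0, 40.3 and 52.5 CPM and exceeded the amygdala by 1.14 ± 0.19. Emx2, which shapes the hippocampal field in the embryo, exceeded the amygdala by 0.76 ± 0.21 (edgeR adjusted p = 0.0128). Without the libraries that stood apart its smallest difference, then from the anterior cortex, was 0.59 ± 0.27 (edgeR adjusted p = 0.123).

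Lhx2, a cortical selector gene, was present in all forebrain regions. It read 82.6, 76.7, 94.5, 71.3 and 87.6 CPM in the sham hippocampus, 67.6 to 84.2 in the amygdala, 44.4 to 74.0 in the anterior cortex and at most 0.369 CPM in the cerebellum. Emx1, of dorsal telencephalic neurons, had no count in the sham cerebellum. Emx1 was not called between hippocampus and anterior cortex (95% interval of the log2 difference -0.31 to 0.36).

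**Figure D2:**
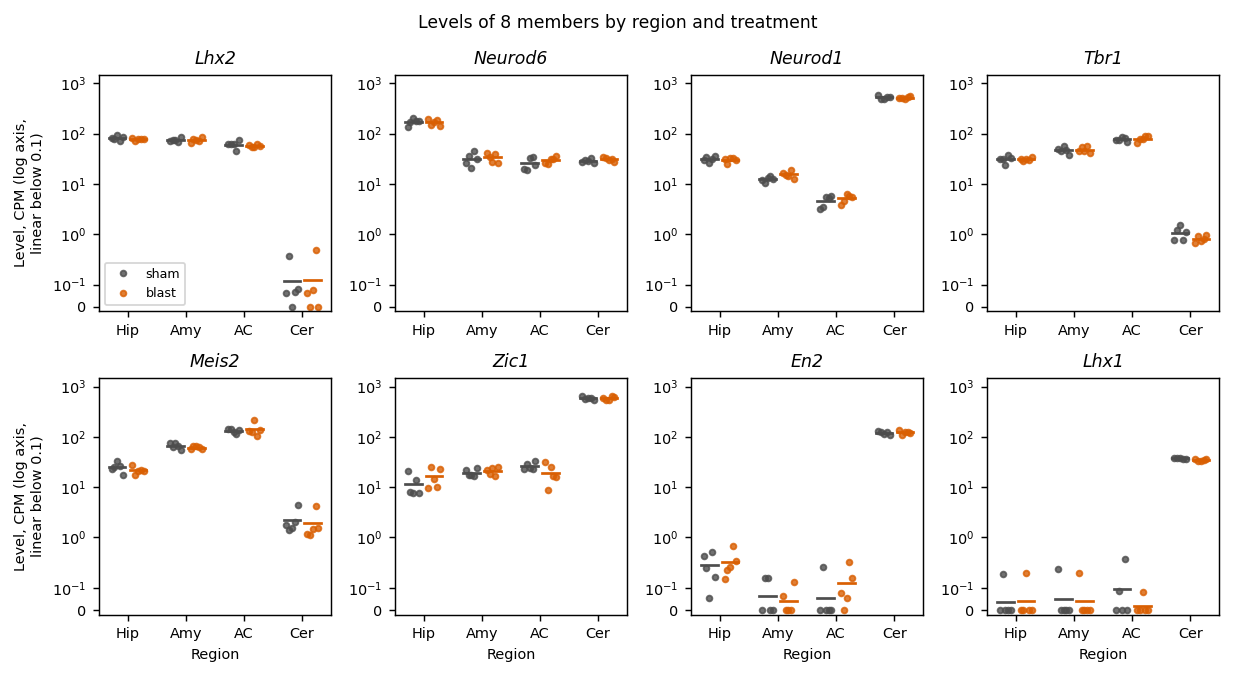
Levels of 8 members in each library of hippocampus (Hip), amygdala (Amy), anterior cortex (AC) and cerebellum (Cer), sham in grey and blast in orange, on an axis that is logarithmic above 0.1 CPM and linear below. Points are libraries and bars group means; Lhx2 is near 0 in the cerebellum, where Neurod1, Zic1, En2 and Lhx1 are highest.

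In the anterior cortex the leading members were factors of cortical projection neurons and of striatal and GABA neurons. Tbr1, a T-box factor of deep-layer neurons, read 73.8, 76.5, 86.5, 80.3 and 68.4 CPM, above the amygdala at 38.0 to 56.8 CPM without overlap. The log2 difference for amygdala minus cortex was -0.73 ± 0.13 (edgeR adjusted p = 6.86e-04). Meis2, a homeodomain factor of striatal and GABA neurons, read 141, 142, 123, 115 and 135 CPM there, 55.8 to 75.4 in the amygdala, 17.2 to 32.7 in the hippocampus and 1.41 to 4.48 in the cerebellum. The 4 regions did not overlap for Meis2.

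Dlx5, a homeodomain factor of GABA interneurons, read 6.72, 7.10, 9.78, 6.93 and 11.98 CPM in the sham anterior cortex and 2.93 to 5.99 in the amygdala. The amygdala minus cortex difference of -0.995 ± 0.32 (edgeR adjusted p = 0.0316) lost its call when amygdala library 14, 15, 33 or the unnumbered one, or anterior cortex library 33, was left out, with adjusted p from 0.0531 to 0.0765. Striatal marker genes summed to 720 to 904 CPM in the sham anterior cortex, 373 to 540 in the amygdala and 309 to 367 in the hippocampus. Their part in the Meis2, Dlx5, Foxp1 and Foxp2 differences was not tested.

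For Foxp2, Foxp1 and Sox8 the cortical lead was no longer called without the libraries that stood apart, which left fewer libraries in the fit. Foxp2, a forkhead factor of deep-layer and striatal neurons, read 26.5, 27.8 and 39.9 CPM in sham libraries 11, 13 and 15 but 16.5 and 13.8 in libraries 14 and 33. Its amygdala minus cortex difference was -1.22 ± 0.23 (edgeR adjusted p = 7.11e-04) with all libraries and -0.48 ± 0.20 (adjusted p = 0.181) without those that stood apart. Foxp1, a forkhead factor of cortical and striatal neurons, read 41.4 to 87.5 CPM in the 4 cortical libraries with few genes detected and 27.7 to 34.5 in the other 6. The smallest lead of the cortex, over the hippocampus, went from 0.93 ± 0.26 (edgeR adjusted p = 0.00711) to 0.16 ± 0.25 (adjusted p = 0.675).

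For Sox8, an oligodendrocyte-lineage factor, the lead over the amygdala was 0.39 ± 0.11 with all libraries and 0.30 ± 0.11 without (edgeR adjusted p = 0.128), and its levels overlapped between the 2 sets. Sox9, an astrocyte factor, separated the 2 sets (65.4 to 83.4 against 25.9 to 41.1 CPM), though it was not called above each other region. What part the number of genes detected has in these values was not tested.

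**Figure D3:**
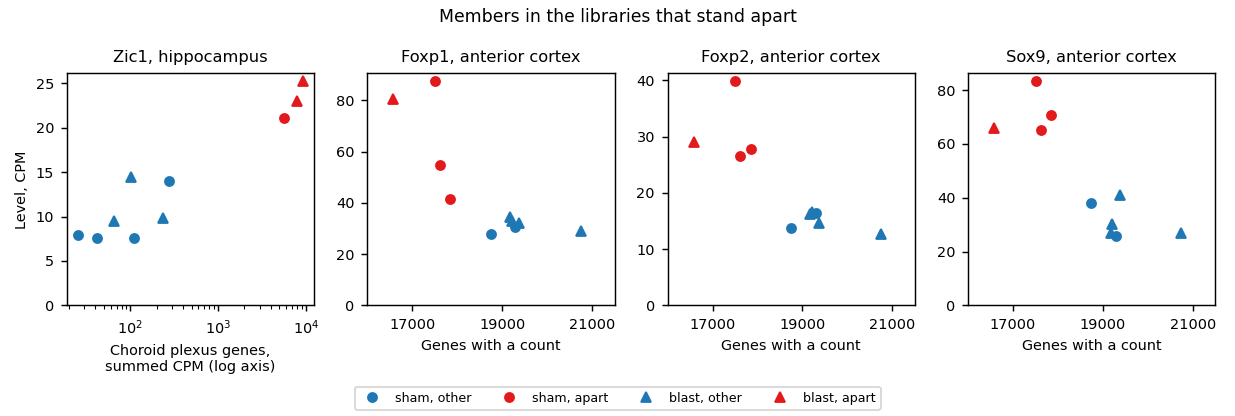
Levels in CPM of Zic1 in the 10 hippocampus libraries against the summed CPM of choroid plexus genes on a log axis, and of Foxp1, Foxp2 and Sox9 in the 10 anterior cortex libraries against the number of genes with a count. Circles are sham and triangles blast libraries; the libraries that stand apart have their own colour and lie above the others in all 4 panels.

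In the hippocampus the Zic genes varied with the choroid plexus genes. Zic1 read 21.1 to 25.3 CPM in the 3 libraries high in choroid plexus genes and 7.54 to 14.4 CPM in the other 7. Zic2 read 17.9 to 21.4 and 10.4 to 15.2 CPM in the same sets. Zic5 overlapped between them (4.12 to 7.04 and 1.64 to 4.79 CPM). The part of the choroid plexus in these levels was not tested.

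In the amygdala 1 member was called above each other region: Six3, a factor of the ventral forebrain and the eye field. It read 2.76, 2.06, 3.45, 3.45 and 3.56 CPM there and 0, 1.13, 1.03, 0 and 1.29 CPM in the anterior cortex. The log2 difference of 2.09 ± 0.72 had an edgeR adjusted p of 0.0472, and without the libraries that stood apart it was 1.40 ± 0.50 (adjusted p = 0.129). In the blast libraries it was 0.41 ± 0.67 (adjusted p = 0.695). Hypothalamic marker genes ran from 5.87 to 83.4 CPM among the sham amygdala libraries and from 0.0936 to 9.05 in the anterior cortex, and their part was not tested.

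Foxc1, a forkhead factor of the meninges, read 15.9, 14.6, 13.7, 12.01 and 22.7 CPM in the sham amygdala and 3.44 to 6.96 in the hippocampus, with no overlap (hippocampus minus amygdala -1.48 ± 0.20, edgeR adjusted p = 1.22e-05). Meningeal genes summed to 373 to 750 CPM in the sham amygdala and 57.6 to 717 in the hippocampus; their part was not tested.

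Regional factors outside these families were compared in the same way. Of 90 listed, 87 were in the tables and 61 were tested, and 59 differed over the 4 regions (74.4% of all genes did). Against the amygdala, 6 of the 61 were called higher in the hippocampus (9.1% of genes) and 25 lower (11.5%). Of the listed factors 51 passed the filter in the hippocampus on its own and 61 in the amygdala. The count of lower factors is therefore no support for a lower hippocampus. Prox1, the dentate granule cell factor, averaged 144 ± 52.4 CPM (SD, n = 5) in the sham hippocampus, 16.4 ± 2.11 in the amygdala, 20.4 ± 7.55 in the anterior cortex and 57.3 ± 4.997 in the cerebellum. Nr2f2, a nuclear receptor of caudal ganglionic eminence neurons, averaged 82.6 ± 8.12 CPM in the amygdala and 20.3 ± 5.97 in the hippocampus. Uncx, a homeodomain factor, averaged 57.1 ± 6.41 CPM in the cerebellum and had no count in the sham hippocampus and anterior cortex.

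No member was called for blast against sham in any region. edgeR tested 68 members in the hippocampus, 77 in the amygdala, 70 in the anterior cortex and 68 in the cerebellum and called 0 in each. Of all genes it called 0.0% in hippocampus, anterior cortex and cerebellum and 0.00654% in the amygdala. DESeq2 and limma voom also called 0 members. An unadjusted edgeR p under 0.05 was found for 1 member in the hippocampus (1.47% of those tested, against 1.82% of all genes) and 10 in the amygdala (12.99%, against 8.47%). It was found for 2 in the anterior cortex (2.86%, against 4.29%) and 6 in the cerebellum (8.82%, against 4.44%). The members' median log2 difference, blast minus sham, was 0.04, -0.01, -0.07 and 0.00 in hippocampus, amygdala, anterior cortex and cerebellum.

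The test of whether the blast difference varied between regions called 0 of 92 members in edgeR (0.0% of genes), with 10 under an unadjusted 0.05 (4.68% of genes). The mean blast effect over the 4 regions called 0 of 92 in limma (0.00611% of genes), with 6 under an unadjusted 0.05 (8.36% of genes).

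**Figure D4:**
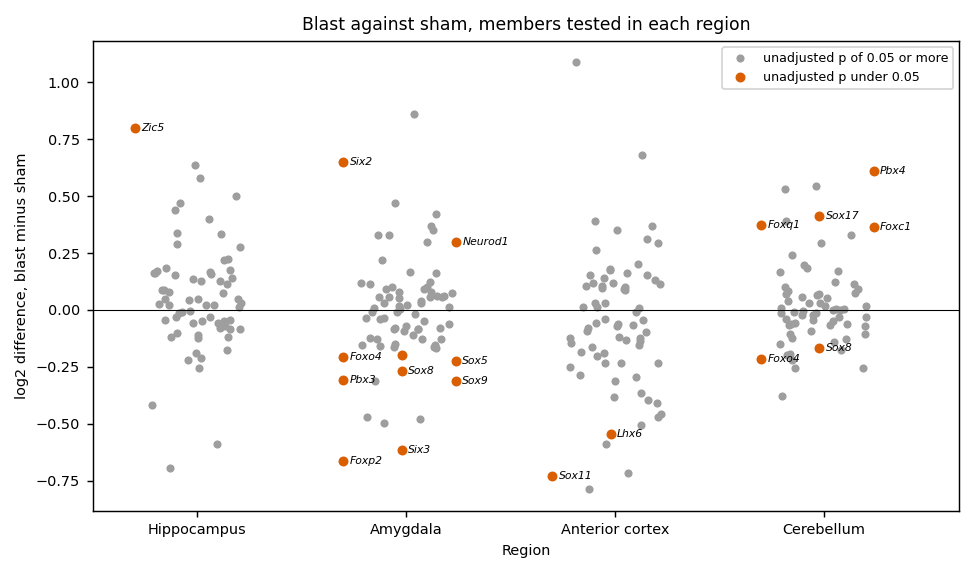
The log2 difference, blast minus sham, of each member tested, by region. Orange points have an unadjusted p under 0.05 and none passed the adjusted threshold; the 10 orange points of the amygdala include Foxp2 at -0.66.

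For 2 members the blast and sham libraries of a region did not overlap. In the amygdala, Foxp2 sham libraries read 10.5, 10.8, 13.7, 10.9 and 8.52 CPM and blast libraries 6.27, 6.14, 6.45, 8.03 and 7.33 CPM. All blast libraries lay below all sham libraries, which held for 0.746% of the genes tested there. The log2 difference was -0.66 ± 0.14 (edgeR adjusted p = 0.447). The authors' deposited table lists a log2 fold change of -0.41 and a p of 1.60e-05 for it, with no adjusted p. Striatal marker genes summed to 373 to 540 CPM in sham and 365 to 510 in blast amygdala libraries. Their part in the Foxp2 difference was not tested. In the anterior cortex the Foxp2 difference was -0.51 ± 0.31, and -0.02 ± 0.16 without the 3 sham libraries and 1 blast library that stood apart there (edgeR adjusted p = 0.999).

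Sox17, an endothelial Sox factor, was the other member without overlap. In the cerebellum its sham libraries read 6.27, 7.13, 6.50, 6.57 and 6.76 CPM and its blast libraries 10.4, 8.71, 7.96, 9.58 and 7.18 CPM. All blast libraries lay above all sham libraries, as for 0.339% of genes, and the log2 difference was 0.41 ± 0.12 (edgeR adjusted p = 0.944). Endothelial markers summed to 167 to 207 CPM in sham and 184 to 199.6 in blast cerebellum. Meningeal genes summed to 58.2 to 232 CPM in sham and 154 to 402 in blast cerebellum, and choroid plexus genes to 46.0 to 1163 and 50.02 to 2551. Their part was not tested. No member was separated upward in hippocampus, amygdala or anterior cortex (0.113%, 0.759% and 0.382% of genes) or downward in hippocampus, anterior cortex or cerebellum (0.139%, 0.248% and 0.42%).

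Sox8 had the smallest p of any member in the mean over the 4 regions, a log2 difference of -0.16 ± 0.05 (limma adjusted p = 0.385). In the amygdala it read 49.0, 53.6, 59.2, 51.3 and 56.2 CPM in sham and 41.0, 43.5, 52.8, 40.5 and 46.0 CPM in blast libraries, with overlap through blast library 22. The forkhead factor Foxo4 had a mean difference of -0.16 ± 0.05 (limma adjusted p = 0.401). Otx1, Zic5 and Pax3 had the smallest p in the test between regions, each with an edgeR adjusted p of 0.947. Pax3 passed the filter on low counts in the cerebellum alone, and Otx1 did not pass it there. For both, the test thus draws in part on regions with very low counts.

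In the hippocampus the Zic5 difference was 0.80 ± 0.30 (edgeR adjusted p = 0.998), with blast values of 4.59, 5.28, 4.79, 3.42 and 7.04 CPM. Its highest libraries, 8 and the last one, are those high in choroid plexus genes, and without the libraries that stood apart the difference was 0.72 ± 0.35. Lhx6, a factor of GABA interneurons, read 4.97, 8.14, 5.75, 7.30 and 6.03 CPM in the sham and 5.26, 3.98, 3.77, 4.60 and 4.89 CPM in the blast anterior cortex (-0.54 ± 0.21, edgeR adjusted p = 0.802), with overlap through sham library 11. Without the libraries that stood apart the Lhx6 difference was -0.36 ± 0.24.

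Six2, a homeodomain factor of mesenchyme, read 1.66, 1.37, 1.02, 1.87 and 2.16 CPM in the sham and 2.39, 1.69, 2.66, 2.53 and 3.47 CPM in the blast amygdala. The groups overlapped and Six2 was not called. By role, none of the 6 lists had a member called in any region. Factors of meninges, choroid plexus, ependyma and vessels had a median difference of 0.33 in the cerebellum, with 12 of 13 tested above 0, and 51.1% of all genes tested there were above 0. Summed meningeal marker genes averaged 135 ± 76.5 CPM (SD, n = 5) in sham and 253 ± 109 in blast cerebellum, and choroid plexus genes 285 ± 491 and 956 ± 1217. Their part in the group's values was not tested. In the anterior cortex the same factors had a median difference of -0.12, with 6 of 15 above 0. The 6 glial and stem cell factors were all above 0 in the hippocampus (median 0.14, with 49.0% of all genes above 0), and 2 of the 6 were in the amygdala (median -0.12).

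**Figure D5:**
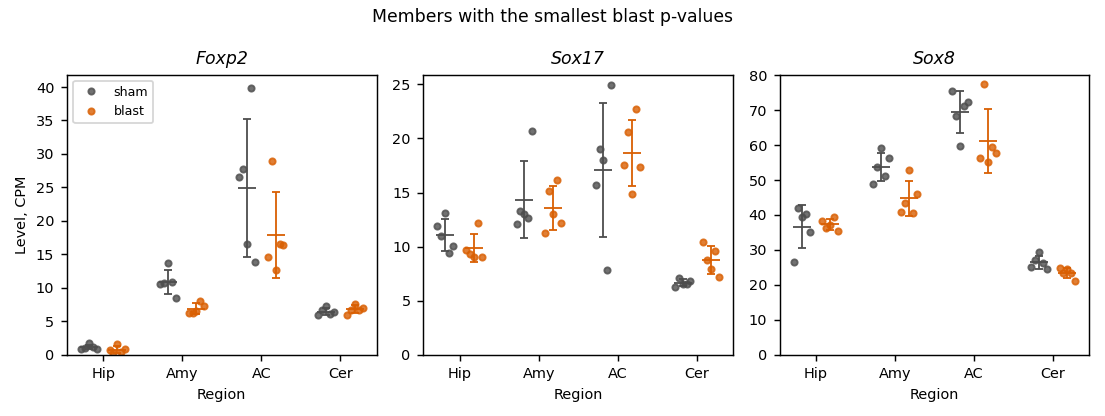
Levels in CPM of Foxp2, Sox17 and Sox8 in each library of 4 regions, sham in grey and blast in orange, with the group mean and SD. Foxp2 in the amygdala and Sox17 in the cerebellum are the cases without overlap.

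Of the 114 members, 27 stayed under 1 CPM in every group mean. Missing from at least 1 table were Foxn4, Nkx1-1, Nkx2-1, Otx2, Pax1, Pax7 and Sox14. Nkx2-1, a ventral forebrain factor, was not in the cerebellum table, and its counts were too low to test in the hippocampus and anterior cortex.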

How the data were processed

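RNA-seq of 40 rat brain libraries was analysed from 4 regional tables. The authors deposited raw counts per gene and library, per the file headers. The authors' deposited tables also hold log2 fold changes of blast against sham and p-values; their test is not stated. CASAVA is named in the submitters' processing notes. Aligner, annotation and genome build: not given in the sources used here. The 80 other columns of values by library were not used.

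Genes were joined by identifier, and 20814 are in all 4 tables. Tests ran in R 4.3.3 with edgeR 4.0.16 (quasi-likelihood F test, filterByExpr, TMM), two-sided, with Benjamini-Hochberg adjustment over all genes tested. limma 3.58.1 (voom, title number as random block) gave the mean effect over regions, and DESeq2 1.42.0 was an alternative. The code was tested on simulated data. Levels are CPM after TMM. Errors are SD for levels and SE for differences, and intervals on ratios of pooled counts (95%) cover counting error only. The amygdala library called unnumbered carries a number in its column header that matches no amygdala title, and was taken as sham because that number is sham in the titles of the other regions and the only amygdala title left without a column is sham.

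Members and lists were chosen with earlier results of these data known. The rule for named members took, per region, up to 6 with a sham mean of at least 1 CPM called above each other region, by their smallest difference, the 3 smallest blast p in each direction with every member called, the 3 smallest p between regions and for the mean effect, and a list of known regional genes. Other regional factors were picked by the first part of it, up to 2 per region, and not all of those picked are named here. Other named members were chosen after their values were seen, and some members are not reported here by name. Alternatives changed the size factors, the filter, the tool, the block, the joint model, the gene set and each library. Leaving out the libraries that stand apart and repeating the regional comparison in blast libraries were chosen after seeing the data.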

Additional observations from a re-analysis of the deposited data

Results flagged for a closer look

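A library was set off from the other 4 of its group by more than Dixon's 95% critical value of 0.71 in 20 of 281 groups of 5, where chance gives about 1 in 20. Blast library 8 of the anterior cortex, which had the fewest genes detected of all libraries, gave 5 of the 20. Foxp2 read 29.0 CPM against 12.7 to 16.6, Foxp1 read 80.3 CPM against 28.9 to 34.5, Six2 read 2.71 CPM against 0.657 to 1.18. Sox8 read 77.4 CPM against 55.1 to 59.4, Otx1 read 3.34 CPM against 4.65 to 4.89. In the hippocampus Foxo6 read 52.5 CPM in sham library 33 against 40.3 to 43.2, Sox17 read 12.1 CPM in blast library 88 against 9.04 to 9.69, Foxp4 read 57.3 CPM in sham library 14 against 64.2 to 65.8. In the amygdala Foxo6 read 24.6 CPM in sham library 15 against 17.8 to 19.2, Sox12 read 23.6 CPM in the unnumbered sham library against 21.2 to 21.8, Sox17 read 20.7 CPM in sham library 33 against 12.1 to 13.3. There too, Dlx2 read 3.47 CPM in the last blast library against 4.78 to 5.05, Sox2 read 99.5 CPM in sham library 33 against 76.1 to 81.2. In the anterior cortex Pax6 read 14.04 CPM in sham library 33 against 10.02 to 11.1, Eomes read 14.5 CPM in blast library 22 against 1.40 to 5.13, Foxc1 read 10.5 CPM in sham library 15 against 14.6 to 16.1. In the cerebellum Meis2 read 4.48 CPM in sham library 33 against 1.41 to 2.02, Meis2 read 4.30 CPM in blast library 88 against 1.12 to 1.56, Foxp1 read 17.0 CPM in sham library 14 against 10.5 to 11.8. There too, Foxq1 read 5.44 CPM in sham library 11 against 3.38 to 3.97.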

How the results depend on the processing

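Counts of called members stayed within 1.5 times under each alternative run, and 0 members were called for blast in every one. With each library left out in turn, they ran from 77 to 83 over the 4 regions, 32 to 41 for hippocampus against amygdala, 46 to 54 for hippocampus against anterior cortex, 60 to 64 for hippocampus against cerebellum, 21 to 30 for amygdala against anterior cortex, 72 to 76 for amygdala against cerebellum and 67 to 75 for anterior cortex against cerebellum. DESeq2 called 1, 6, 0 and 5 genes for blast in hippocampus, amygdala, anterior cortex and cerebellum, and the 40-library edgeR model 33 in the anterior cortex. The Six3 difference also lost its call with 15 of 20 libraries left out in turn, and ran from 1.78 to 2.40.

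Title numbers were not taken to pair the samples, since not every pair with the same number had a correlation over 0.1: 8 of 27 sham pairs (median 0.03) and 11 of 30 blast pairs (median 0.08) did. For number 88 it was 5 of 6 pairs, and between amygdala and cerebellum 6 of 9. Pairs with different numbers were not compared, so these values do not show that the libraries are unpaired. With the number as a replicate block, 78 members were called over the 4 regions and 33, 48, 61, 18, 71 and 67 in the pairs in the order above. Genes called between amygdala and anterior cortex went from 3415 to 2233. The block ended the calls of Six3 (2.48, edgeR adjusted p = 0.0933) and Dlx5 (-1.05, adjusted p = 0.0847) between these regions.

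Eomes and Sox11 changed sign in blast against sham of the anterior cortex, and neither was called. Eomes was 0.68 with all libraries, -0.018 without blast library 22, and at most 0.92 with another left out. Sox11 was -0.73, and 0.12 without the libraries that stood apart; the cause was not tested.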
